A study of Mus musculus with 6 samples.

Results

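The 10 genes described here encode proteins of the antiviral response: the ADP-ribosyltransferase family members Parp9, Parp10, Parp11, Parp12 and Parp14, the ubiquitin ligase Dtx3l, the nucleotide hydrolase Samhd1, the membrane protein tetherin (Bst2), the apoptosis factor Xaf1 and the leucine zipper protein Ifi35. They were chosen by their gene symbols from the 18182 genes of the expression files, all 10 were present, and all 10 were among the 13353 genes expressed highly enough to be tested. RNA had been sequenced from LLC cells (Lewis lung carcinoma), a murine tumour line that carried red fluorescent protein (RFP) here. Wild type C57BL/6 mice received LLC-RFP cells under the skin, either alone (LLC alone, 3 libraries) or together with bone marrow-derived mesenchymal stem cells (LLC with BMSCs, 3 libraries). RFP-positive cells were then sorted from the primary tumours by flow cytometry. Both groups therefore shared the mouse strain, the labelled tumour line, the site and the sort, and differed in the co-injected BMSCs. How pure the sorted cells were and whether the RFP line was a single clone were not given in the sources used here. The methods give an age for mice of the allograft growth experiments, without saying whether the sequenced tumours came from mice of that age.

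The comparison asked how the transcriptome of the tumour cells differed when BMSCs had been injected with them. Libraries held 33476347 to 46189113 estimated counts on genes. No label says that the 3 libraries of a group came from separate mice, so the p-values measure the spread between these libraries, which may be technical. The libraries were not equally far apart: between LLC alone replicates 1 and 2 the mean chi-square per gene was 4.8, and between LLC with BMSCs replicates 2 and 3 it was 3.03, against 19.3 to 61.0 for the other pairs of a group. Both close pairs still differed by more than sampling noise, with a median chi-square 1.96 and 1.69 times that of noise alone. LLC alone replicate 3 stood farthest from its group. Levels are given as FPKM, fragments scaled for transcript length and library size, which can be compared between genes. Differences between groups are log2 fold changes from edgeR's quasi-likelihood test on the counts, with p-values adjusted by the Benjamini-Hochberg method over all tested genes.

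Poly-ADP-ribose polymerases (PARPs) attach ADP-ribose to proteins and nucleic acids. Most of the members studied here attach single ADP-ribose units or, like Parp9, read ADP-ribose through macrodomains, and several restrict viral replication. Interferons raise their transcription in many cell types, together with that of other restriction factors such as tetherin, which holds budding virus particles at the cell surface, and Samhd1, which depletes the deoxynucleotides that viral DNA synthesis needs.

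Of the 10 genes, 9 were higher in LLC with BMSCs than in LLC alone at an adjusted p under 0.05, where 31.5% of all tested genes were. Of these, 8 reached 1 or more on the log2 scale, a size that 8.65% of the tested genes reached. No member was lower by edgeR, 0 also at an unadjusted p under 0.05 and with DESeq2 or limma, against 31.3% of the tested genes. In 9 members every library of LLC with BMSCs was above every library of LLC alone in FPKM, which held for 37.0% of tested genes. The median log2 fold change was 2.42 over the members and 0.01 over all tested genes. The 10 genes had been chosen with earlier results of these data known, so these comparisons with all tested genes are descriptions. The summed abundance of the 10 genes was 149 to 157 CPM (counts scaled to library size) in LLC alone and 608 to 610 CPM in LLC with BMSCs. The sizes were unequal, from a 91.9-fold difference in Parp14 to 1.35-fold in Samhd1, and Parp11 was the member that was not called.

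**Figure D1:**
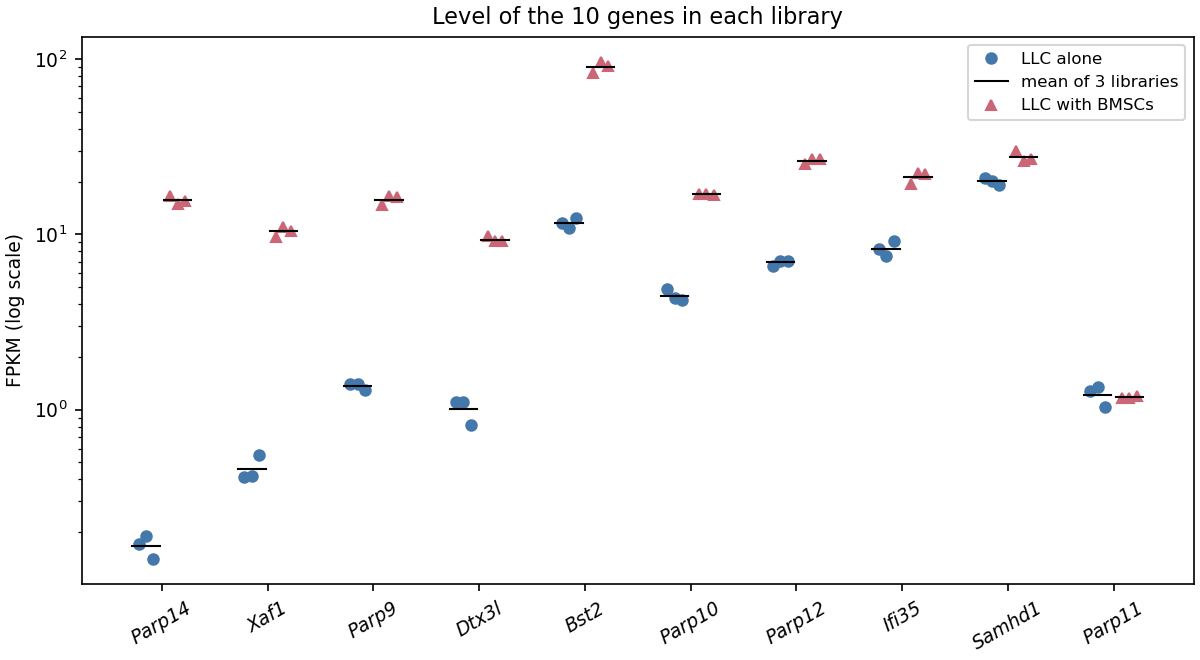
FPKM on a log axis for each of the 10 genes in each library, ordered by fold change; circles are the 3 LLC alone libraries, triangles the 3 LLC with BMSCs libraries and bars their means. The groups were apart in 9 genes and overlapped in Parp11, and Parp14 went from the lowest mean level, 0.167 FPKM, to 15.7 FPKM.

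Markers of other cell types moved between the same groups, where 31.5% of all tested genes were higher with BMSCs and 31.3% lower. All 10 tested genes of a BMSC and fibroblast list were higher with BMSCs, and their summed level was 366 to 429 CPM in LLC alone and 803 to 853 CPM with BMSCs. Most of that sum was collagen III (Col3a1, 41.2 FPKM in LLC alone and 100 FPKM with BMSCs) and endoglin (Eng). Col1a1 (0.0133 and 2.0 FPKM) and Dcn (0.11 and 6.31 FPKM) were near 0 in LLC alone. Their log2 fold changes were 7.14 and 5.87, beside 6.52 for Parp14 and 4.97 for Xaf1. Thy1 and Cxcl12 had no count in LLC alone. With BMSCs Thy1 had 0, 2 and 1 counts and Cxcl12 12, 7 and 8, and both were too low to be tested. All 5 tested neutrophil genes were higher, with sums of 0.436 to 0.72 CPM and 17.7 to 20.3 CPM, led by S100a9 and S100a8. In the same list Mpo and Elane had no count in LLC alone. With BMSCs Mpo had 33, 22 and 14 counts, and Elane, too low to be tested, had 11, 10 and 5. The neutrophil gene Ly6g was too low to be tested, at 4, 3 and 1 counts in LLC alone and 3, 1 and 1 with BMSCs. Of 6 tested macrophage genes 4 were higher and 1 lower. The macrophage list summed to 24.1 to 29.0 CPM and 28.9 to 30.8 CPM, led by Cd14 and Cd68. Adgre1 and C1qa were at 0 in LLC alone. With BMSCs Adgre1 had 60, 79 and 63 counts, and C1qa, too low to be tested, had 1, 3 and 3. The T, NK and B cell list summed to 0.24 to 0.36 CPM and 2.35 to 2.67 CPM, led by Ptprc and Cd79a. The list for plasmacytoid dendritic cells, known as strong interferon producers, was led by Cox6a2 and Lair1. It summed to 2.88 to 3.42 CPM in LLC alone and 0.764 to 0.784 CPM with BMSCs. Its 2 tested genes went opposite ways. Cox6a2 was lower (2.98 and 0.173 CPM, log2 fold change -4.09) and Lair1 higher (0.00726 and 0.308 CPM, log2 fold change 4.83). The defining gene of the list, Siglech, had at most 1 count in any library. The endothelial list, led by Pecam1 and Vwf, summed to 1.05 to 1.26 CPM and 1.33 to 1.75 CPM, and neither of its 2 tested genes was called by edgeR (0 at an unadjusted p under 0.05; DESeq2, which tested more genes, called Cdh5 higher). Among the epithelial and lung markers of the labelled cells, Krt8 was at 95.3 FPKM in LLC alone and 110 FPKM with BMSCs, while Krt18 was below 1 FPKM and Krt7, Krt19, Epcam, Cdh1, Nkx2-1 and Sftpc were at or near 0 in every library. The part of these cells in the member differences was not tested. In a sorted bulk sample, a different share of cells expressing a gene and a different amount of its RNA per cell cannot be told apart.

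Promoter sequences are shown for the 4 members whose windows held a GAAA repeat of the interferon-responsive type, in genes that differed strongly (Bst2, Xaf1), moderately (Ifi35) and not detectably (Parp11). The sequences come from RefSeq on GRCm38.p6, in windows from 250 bases before to 50 bases after the annotated start, and 7 of the 10 members had a window, 8 windows in all since Parp11 had 2. Parp9, Parp10 and Parp14 had none. The interferon-stimulated response element (ISRE) was searched as GAAANNGAAA on both strands (TTTCNNTTTC on the other), and the gamma-activated site (GAS) as TTCNNNGAA, which reads the same on both strands. A closer spacing, GAAANGAAA (TTTCNTTTC on the other strand), was added after the windows had been seen. In the lines that follow, capitals mark the repeats of GAAA or, on the other strand, TTTC. The Bst2 line is chr8:71537473-71537722 on the minus strand and the Parp11 line is chr6:127446590-127446839 on the plus strand, both directly upstream of the start. The Ifi35 line is chr11:101448414-101448443 and the Xaf1 line chr11:72301628-72301657, both on the plus strand. The Ifi35 line begins 3 bases after the start, and the Xaf1 line begins with the last base before the start and runs to base 29 after it.
Bst2: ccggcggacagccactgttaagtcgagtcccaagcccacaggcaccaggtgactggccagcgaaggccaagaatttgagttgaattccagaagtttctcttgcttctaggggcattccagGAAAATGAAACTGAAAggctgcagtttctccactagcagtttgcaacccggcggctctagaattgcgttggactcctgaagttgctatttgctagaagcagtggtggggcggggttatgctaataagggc
Parp11: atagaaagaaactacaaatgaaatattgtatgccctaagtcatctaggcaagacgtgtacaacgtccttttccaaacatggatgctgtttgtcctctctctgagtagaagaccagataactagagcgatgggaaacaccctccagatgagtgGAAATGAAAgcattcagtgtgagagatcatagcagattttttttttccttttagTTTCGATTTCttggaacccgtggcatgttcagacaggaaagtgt
Ifi35: cagaattcacaGAAATGAAAgtggaagtga
Xaf1: ctgtgtgcaaaGAAACGAAActccacagaa

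The Bst2 promoter held 2 overlapping ISRE matches, from 130 to 121 and from 124 to 115 bases before the start, which make 3 GAAA blocks spaced by 2 bases. Such a triple, a pattern described from the Bst2 window itself, was present in 38 of the 32851 RefSeq windows of all genes, or 0.116%. That share is a description and not a test. A GAS match from 136 to 128 bases before the start overlapped it. The first Parp11 window held an ISRE match on the other strand, 44 to 35 bases before the start, an overlapping GAS match at 37 to 29 bases, and a closely spaced repeat at 98 to 90 bases. Parp11 thus held an ISRE and a GAS match as Bst2 did, without the triple, and was not called between the groups. ISRE matches, single or several, were present in 3.44% of all windows, GAS matches in 8.3% and closely spaced repeats in 3.17%. An ISRE with a GAS in the same window was present in 0.454%. Ifi35 held a closely spaced repeat at bases 14 to 22 after the start, overlapping a GAS match at bases 8 to 16. Xaf1 held a closely spaced repeat at bases 11 to 19. Samhd1 held a GAS match 235 to 227 bases before the start. None of these letters was in the windows of Dtx3l and Parp12 or in the second Parp11 window. The matches are descriptions of the sequence, and no binding was measured.

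**Figure D2:**
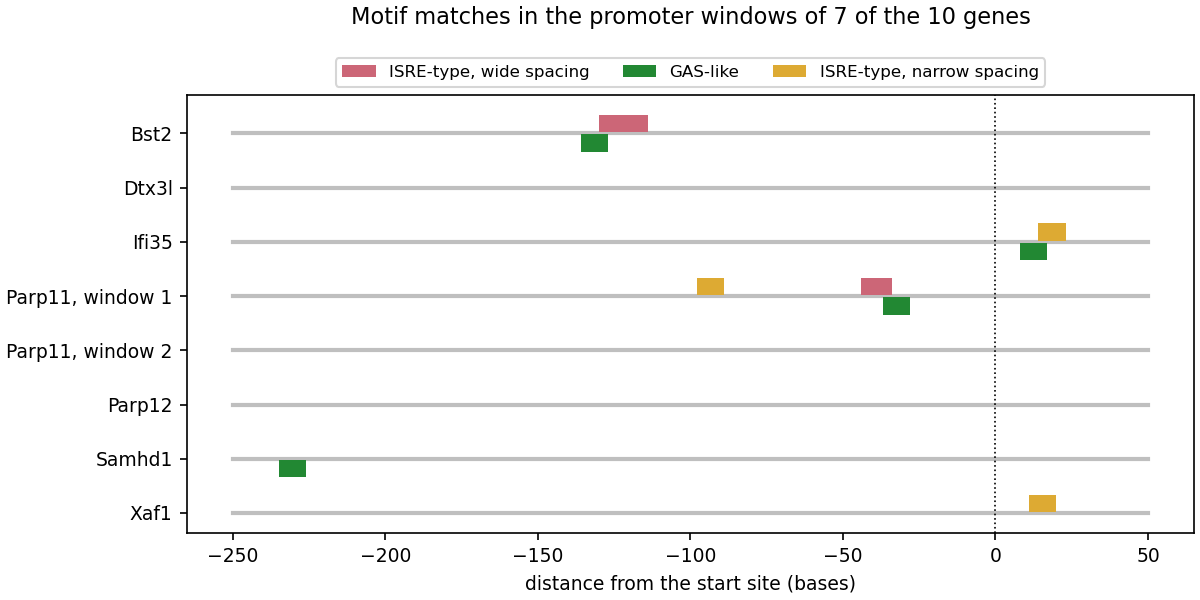
Positions of the matches in the 8 windows of 7 genes, in bases from the annotated start (dotted line); red marks ISRE-type repeats with wide spacing, yellow those with narrow spacing and green GAS-like matches, and grey lines span each window. Bst2 and the first Parp11 window hold both an ISRE-type and a GAS-like match, and the windows of Dtx3l and Parp12 hold none.

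Parp14, a mono-ADP-ribosyltransferase with macrodomains that also acts as a cofactor of interleukin-4 signalling, differed most (gene ID 547253, chr16:35832874-35871544, GRCm38). In LLC alone it was at 0.17, 0.19 and 0.14 FPKM in replicates 1 to 3, resting on 58, 46 and 47 counts. With BMSCs it was at 16.5, 14.9 and 15.5 FPKM, from 5283, 4736 and 4894 counts. The groups were far apart and each was tight. The log2 fold change was 6.52 (SE 0.11, 95% confidence interval 6.27 to 6.78; edgeR adjusted p = 7.59e-08). By this value Parp14 stood at place 124 from the top of the 13353 tested genes. In mean FPKM, 7.32% of tested genes were below it in LLC alone and 63.1% with BMSCs.

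Parp9, a macrodomain protein, works in a complex with the ubiquitin ligase Dtx3l. The 2 genes lie head to head on chromosome 16 (Parp9, gene ID 80285, chr16:35938470-35972605, plus strand; Dtx3l, gene ID 209200, chr16:35926511-35939151, minus strand). Parp9 was at 1.41, 1.41 and 1.3 FPKM in LLC alone and at 14.7, 16.5 and 16.3 FPKM with BMSCs. The difference was 11.5-fold, a log2 fold change of 3.52 (SE 0.0763, 95% confidence interval 3.35 to 3.7; edgeR adjusted p = 1.02e-07). Its partner Dtx3l was at 1.11, 1.1 and 0.82 FPKM in LLC alone and at 9.78, 9.14 and 9.12 FPKM with BMSCs. All libraries with BMSCs were well above those of LLC alone for both partners. For Dtx3l the difference was 9.16-fold, a log2 fold change of 3.2 (SE 0.113, 95% confidence interval 2.93 to 3.46; edgeR adjusted p = 6.07e-07). The annotated exons of these neighbours share 458 bases on opposite strands, and both carried fractional counts, Parp9 in 5 and Dtx3l in 6 libraries, so some reads had been divided between features.

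The ratio of Parp9 to Dtx3l within a library moved little beside the change of each gene. On the log2 scale of counts it was -0.18, -0.17 and 0.11 in LLC alone and 0.06, 0.33 and 0.32 with BMSCs. The means were -0.08 ± 0.167 (SD, n = 3) and 0.24 ± 0.152 (SD, n = 3), and the ranges overlapped. The difference of 0.32 had p = 0.2 in a two-sided exact permutation test, where 3 against 3 libraries cannot give less than 0.1.

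Parp10 and Parp12, mono-ADP-ribosyltransferases known to slow RNA viruses, differed by nearly the same factor. Parp10 (gene ID 671535, chr15:76231174-76243441), which carries an RNA recognition motif, was at 4.86, 4.33 and 4.21 FPKM in LLC alone and at 17.1, 17.1 and 16.7 FPKM with BMSCs. Its log2 fold change was 1.91 (SE 0.0678, 95% confidence interval 1.75 to 2.07; edgeR adjusted p = 6.22e-07). Parp12 (gene ID 243771, chr6:39086410-39118349), a zinc finger protein of the Golgi and stress granules, was at 6.59, 7.1 and 7.1 FPKM in LLC alone and at 25.2, 27.0 and 26.9 FPKM with BMSCs. Its log2 fold change was 1.91 as well (SE 0.0627, 95% confidence interval 1.76 to 2.05; edgeR adjusted p = 4.98e-07). Both genes were 3.75-fold higher, with no overlap between groups. Parp10 shares 205 exon bases with its neighbour Plec on the same strand, and Plec itself was 32.3 ± 9.47 FPKM in LLC alone and 51.3 ± 4.64 FPKM with BMSCs (SD, n = 3; log2 fold change 0.66), though no Parp10 count was fractional.

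Parp11 (gene ID 101187, chr6:127446840-127494261), a mono-ADP-ribosyltransferase of the nuclear envelope, was the exception among the 5 PARPs. It was at 1.27, 1.34 and 1.04 FPKM in LLC alone and at 1.17, 1.17 and 1.2 FPKM with BMSCs. The 3 libraries with BMSCs lay inside the range of LLC alone. The log2 fold change was -0.06 (SE 0.114, 95% confidence interval -0.33 to 0.2; edgeR adjusted p = 0.644), on 164 to 215 counts per library. In LLC alone its level was close to those of Parp9 and Dtx3l and its libraries overlapped with theirs. With BMSCs it was the lowest of the 10 genes.

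The 5 PARPs among the 10 genes, Parp11 included, summed to 14.2 ± 0.317 FPKM in LLC alone and 76.0 ± 1.22 FPKM with BMSCs (SD, n = 3). The 11 other members of the PARP family summed to 264 ± 19.5 and 319 ± 4.2 FPKM. The share of the 5 in the summed FPKM of all 16 genes was 5.09% ± 0.258 in LLC alone and 19.2% ± 0.396 with BMSCs. These sums are a description with no test, since the 5 had been chosen with results of these libraries known. Of the 11 other family members, 5 were higher, beside 31.5% of all tested genes. Of the 11, 0 were lower, beside 31.3% (0 also at an unadjusted p under 0.05, with DESeq2 and with limma). None reached a log2 fold change of 1, and their median was 0.26. Parp16, an enzyme of the endoplasmic reticulum, had the largest of these (log2 fold change 0.7, edgeR adjusted p = 5.12e-05). Tankyrase 2 (Tnks2), which makes ADP-ribose chains on telomere and Wnt pathway proteins, followed at 0.45 (adjusted p = 0.000727), and Parp8 at 0.43 (adjusted p = 0.000453). The DNA damage sensors Parp1 and Parp3 were higher by 0.27 and 0.26 on the log2 scale (adjusted p = 0.0122 and 0.00488). No call was made for Tnks (0.51, adjusted p = 0.141), Parp4 (0.24, 0.127), the zinc finger antiviral protein Zc3hav1 (0.15, 0.149), Parp2 (0.09, 0.167), Tiparp (0.0, 0.994) and Parp6 (-0.11, 0.115). For Tnks the spread came from LLC alone replicate 3, at 48.5 CPM beside 110 and 113 CPM in the other replicates.

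**Figure D3:**
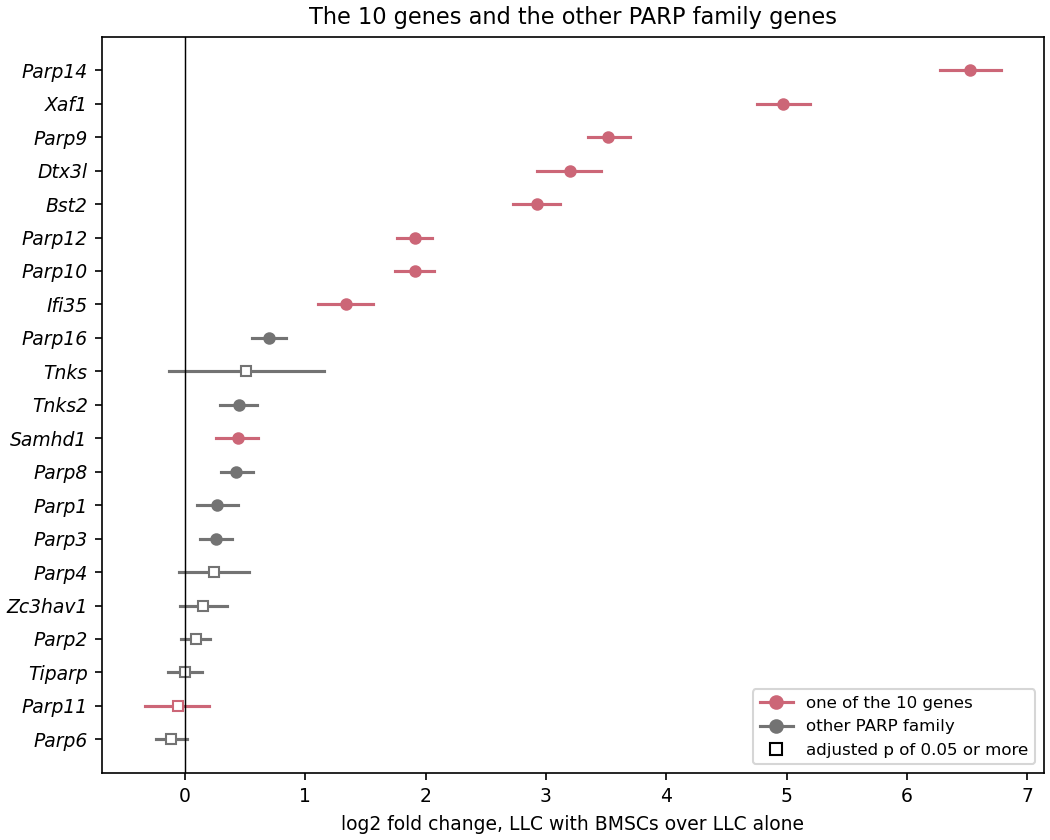
Log2 fold change of LLC with BMSCs over LLC alone for the 10 genes (red) and 11 other PARP family genes (grey), with 95% confidence intervals as lines; open squares have an adjusted p of 0.05 or more. Parp14, Parp9, Parp12 and Parp10 lie at 1.91 or more, and the other family members at 0.7 or less.

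ADP-ribose is also removed from proteins. Of 7 tested genes for this step, 1 was higher and 3 were lower, beside 31.5% and 31.3% of all tested genes. The chain-cleaving hydrolase Parg was higher by 0.59 on the log2 scale (adjusted p = 0.00063), while Adprh (-0.69, adjusted p = 0.000324), Adprhl2 (-0.42, adjusted p = 0.00281) and Nudt16 (-0.26, adjusted p = 0.0227) were lower. Of the 3 tested Deltex ligases related to Dtx3l, 2 were higher, Dtx4 by 0.9 (adjusted p = 5.85e-05) and Dtx3 by 0.21 (adjusted p = 0.0454). No gene of either list reached a log2 fold change of 1 in size.

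Bst2 (gene ID 69550, chr8:71534255-71537456), tetherin, had the largest gain in level. It was at 11.6, 10.9 and 12.5 FPKM in LLC alone and at 83.3, 97.0 and 91.0 FPKM with BMSCs. The means were 11.7 ± 0.801 and 90.5 ± 6.86 FPKM (SD, n = 3), a gain of 78.8 FPKM. The log2 fold change was 2.93 (SE 0.0835, 95% confidence interval 2.73 to 3.12; edgeR adjusted p = 2.6e-07), or 7.61-fold. Bst2 was second to Samhd1 among the 10 genes in LLC alone and first with BMSCs, where 93.7% of tested genes were below it. Its printed promoter is the one with the triple GAAA repeat. Related genes numbered 7, for membrane anchoring (Pigk) and for the sorting and scission machinery that releases virus. Of these, 3 were higher and 2 lower, beside 31.5% and 31.3% of all tested genes. All 7 had log2 fold changes under 1 in size. The higher ones were Vps4b (0.3), Vps4a (0.23) and Tsg101 (0.22), and the lower ones Chmp4b (-0.53) and Pigk (-0.23).

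Samhd1 (gene ID 56045, chr2:157097533-157135265), the deoxynucleotide triphosphohydrolase, was the most abundant of the 10 genes in LLC alone and differed least of those called. It was at 21.1, 20.1 and 19.1 FPKM in LLC alone and at 29.9, 26.1 and 27.0 FPKM with BMSCs. The groups did not overlap, and the gain was small beside the level. The log2 fold change was 0.44 (SE 0.0739, 95% confidence interval 0.26 to 0.61; edgeR adjusted p = 0.00137), place 3052 of 13353 tested genes. Of 8 genes that make or salvage deoxynucleotides, 0 were higher by edgeR or by DESeq2 and limma, and 1 (Tk1) was at an unadjusted p under 0.05. In the same list 3 were lower, namely Dguok (-0.71, adjusted p = 0.000539), Rrm2b (-0.39, adjusted p = 0.00447) and Rrm2 (-0.17, adjusted p = 0.036). Over all tested genes, 31.5% were higher and 31.3% lower.

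Of the 2 transcripts of Samhd1, the modest gain was seen in NM_018851 only. The transcript NM_018851 was at 16.61, 15.23 and 15.05 FPKM in LLC alone and at 26.93, 22.8 and 23.97 FPKM with BMSCs. The other transcript, NM_001139520, was at 4.48, 4.86 and 4.06 FPKM in LLC alone and at 3.01, 3.26 and 3.05 FPKM with BMSCs. The groups did not overlap for either transcript, and they differed in opposite directions. The share of NM_001139520 in the gene's FPKM was 22.2% ± 1.7 in LLC alone and 11.3% ± 1.23 with BMSCs (SD, n = 3). This difference of -10.9 percentage points had p = 0.1 in a two-sided exact permutation test, the smallest that 3 against 3 libraries can give, and 0.24 after adjustment over the 12 transcript shares compared.

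Xaf1 (gene ID 327959, chr11:72301629-72313733), which binds and counteracts the apoptosis inhibitor Xiap, had a low level in LLC alone. It was at 0.41, 0.42 and 0.55 FPKM there, on 62, 45 and 74 counts. With BMSCs it was at 9.73, 11.1 and 10.5 FPKM, on 1914, 2103 and 2032 counts. The log2 fold change on counts was 4.97 (SE 0.0938, 95% confidence interval 4.75 to 5.19; edgeR adjusted p = 7.59e-08), a 31.3-fold difference that ranked second among the 10 genes. The ratio of mean FPKM was smaller, at 22.7, since the mean transcript length that the authors assigned to the gene was 3203.25 bases in LLC alone and 4435.07 bases with BMSCs. All 6 libraries had fractional Xaf1 counts.

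A long transcript model of Xaf1 held a larger share with BMSCs. BGI_novel_T001238, of 10739 bases, was at 0.0333 ± 0.00577 FPKM in LLC alone and 2.37 ± 0.1 FPKM with BMSCs (SD, n = 3). Its share of the gene's FPKM was 7.42% ± 2.21 in LLC alone and 22.7% ± 0.934 with BMSCs, apart in all libraries (two-sided exact permutation p = 0.1, adjusted 0.24). The annotated transcript NM_001037713 was at 0.223 ± 0.112 and 4.09 ± 0.00577 FPKM, BGI_novel_T001237 at 0.167 ± 0.0723 and 2.84 ± 0.418 FPKM, and NM_001291153 at 0.04 ± 0.04 and 1.16 ± 0.257 FPKM (SD, n = 3). All 4 transcripts were thus higher with BMSCs in every library. Shares in LLC alone rest on values of 0 to 0.32 FPKM and on estimated counts of 0 to 37.1 per transcript.

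**Figure D4:**
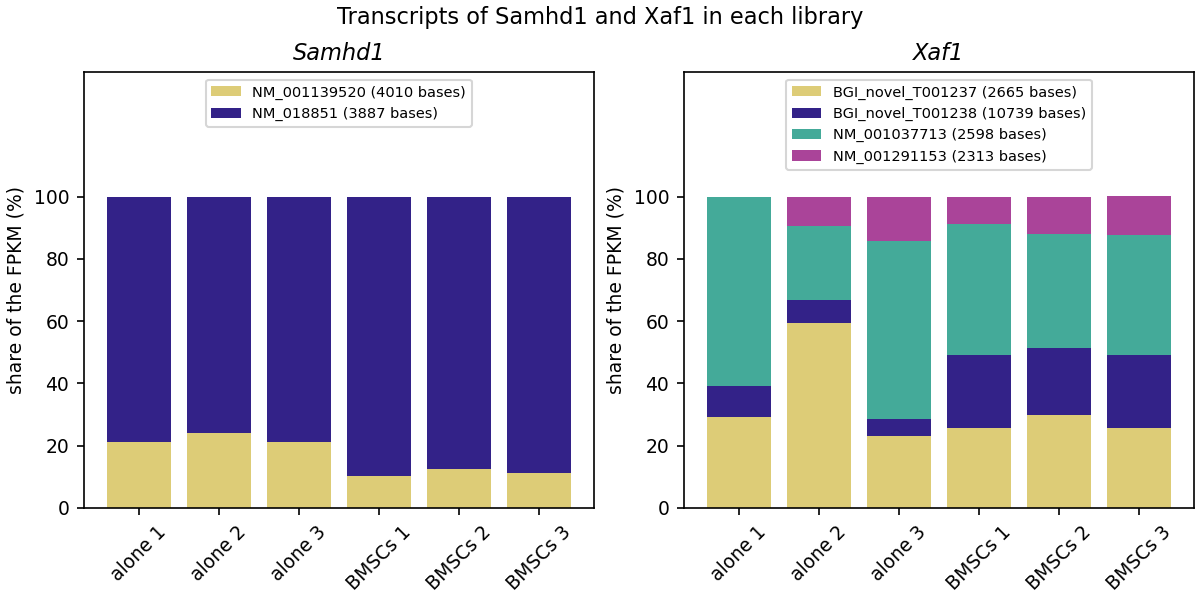
Share of the gene's FPKM held by each transcript of Samhd1 and Xaf1 in each library, in percent of the summed transcript FPKM, with lengths in bases. The share of NM_001139520 of Samhd1 is lower in the 3 libraries with BMSCs (11.3% on average beside 22.2%), and the 10739-base transcript of Xaf1 takes a larger share there (22.7% beside 7.42%).

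Of 7 genes for inhibitor of apoptosis proteins and their antagonists, 3 were higher and 2 lower, shares near the 31.5% and 31.3% of all tested genes. Birc3 (cIAP2), a ligase of the NF-kappaB pathway and a known NF-kappaB target, was at 0.34, 0.35 and 0.25 FPKM in LLC alone and at 5.76, 5.78 and 5.68 FPKM with BMSCs. Its log2 fold change was 4.39 (95% confidence interval 4.14 to 4.64, edgeR adjusted p = 1.21e-07). This was below the 4.97 of Xaf1 (95% confidence interval 4.75 to 5.19). Birc2 (0.57) and Xiap itself (0.3) were higher by less, and the mitochondrial antagonists Htra2 (-0.45) and Diablo (-0.33) were lower.

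Ifi35 (gene ID 70110, chr11:101448407-101458698) forms a complex with the related protein Nmi. It was at 8.21, 7.51 and 9.14 FPKM in LLC alone and at 19.3, 22.4 and 22.2 FPKM with BMSCs, with no overlap. The log2 fold change was 1.34 (SE 0.0958, 95% confidence interval 1.11 to 1.56; edgeR adjusted p = 1.83e-05), or 2.52-fold. Of 3 partner genes 2 were higher, where 31.5% of all tested genes were. Trim21, an antibody receptor and ubiquitin ligase, was at 1.65, 1.81 and 1.69 FPKM in LLC alone and at 4.15, 4.3 and 4.22 FPKM with BMSCs (log2 fold change 1.28, adjusted p = 7.89e-06), and Nmi was higher by 0.73 (adjusted p = 9.11e-05).

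Parp9 and Parp10 also had several transcripts. For Parp9, the annotated NM_030253 held 74.2% ± 18.5 of the gene's FPKM in LLC alone and 54.7% ± 4.88 with BMSCs (two-sided exact permutation p = 0.3). BGI_novel_T003132 held 8.75% ± 7.65 and 20.6% ± 4.71 (two-sided exact permutation p = 0.1, adjusted 0.24). For Parp10, NM_001163575 held 73.1% ± 9.12 and 77.5% ± 2.98 (two-sided exact permutation p = 0.4). Its BGI_novel_T002734 held 11.5% ± 6.08 in LLC alone and 4.57% ± 1.03 with BMSCs, with no overlap between groups (two-sided exact permutation p = 0.1, adjusted 0.24). The spread of these shares was wider in LLC alone for both genes. Parp11, Parp12, Parp14, Dtx3l, Bst2 and Ifi35 had 1 transcript each in the files.

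The order of the 10 genes by level differed between the groups. In LLC alone it ran from Samhd1 through Bst2, Ifi35, Parp12 and Parp10 to Parp9, Parp11 and Dtx3l, then Xaf1 and Parp14. The libraries of Parp9 overlapped with those of Parp11 and those of Parp11 with those of Dtx3l, so these neighbours were not apart. With BMSCs the order was Bst2, Samhd1, Parp12, Ifi35, Parp10, Parp9, Parp14, Xaf1, Dtx3l and Parp11. There Samhd1 and Parp12, Parp9 and Parp14, and Xaf1 and Dtx3l overlapped as neighbours. All other neighbours in either order were apart in their libraries.

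Other restriction factors were also largely higher. Of 18 tested, 13 were higher and 2 lower, beside 31.5% and 31.3% of all tested genes. A log2 fold change of at least 1 was reached by 6 of the higher ones, beside 8.65% of all tested genes. The median over the 18 was 0.65. Slfn2, which limits cell proliferation and protects tRNAs, was at 0.42, 0.37 and 0.46 FPKM in LLC alone and at 5.87, 5.23 and 5.28 FPKM with BMSCs (log2 fold change 3.68, edgeR adjusted p = 5.4e-07). The retroviral restriction factor Apobec3 was at 8.66 ± 0.29 FPKM in LLC alone and 51.7 ± 1.62 FPKM with BMSCs (SD, n = 3; log2 fold change 2.66, edgeR adjusted p = 1.02e-07). The frameshift inhibitor Shfl, listed as A230050P20Rik, had a log2 fold change of 1.85 (edgeR adjusted p = 2.68e-05). The entry inhibitor Ifitm3 was abundant already in LLC alone, at 261 ± 45.4 FPKM, and was at 732 ± 55.2 FPKM with BMSCs (SD, n = 3; log2 fold change 1.46, edgeR adjusted p = 4.56e-05). The 2 lower genes were the membrane ligases Marchf2 (-0.21, adjusted p = 0.0189) and Marchf8 (-0.17, adjusted p = 0.0416). The number of these factors called lower was again 2 in 4 of 17 alternatives, and 0 with the replicate block or the close libraries summed.

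The complex ISGF3 binds ISREs after type I interferon, and 2 of its subunits were measured here. Stat2 was at 1.82, 1.78 and 1.69 FPKM in LLC alone and at 22.2, 20.6 and 21.3 FPKM with BMSCs (log2 fold change 3.58, edgeR adjusted p = 7.59e-08). The DNA-binding subunit Irf9 was at 0.1 FPKM in LLC alone replicate 1 on 11 counts and was listed at 0 in the other replicates, and was at 6.34, 4.59 and 4.48 FPKM with BMSCs (edgeR adjusted p = 2.03e-05). Both subunits differed in the direction of the members, and Irf9 had fractional counts in 4 libraries.

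Of 17 nearest tested protein-coding neighbours on GRCm38 that are not members themselves, a comparison added after the data had been seen, 8 were higher, 3 lower and 6 not called, beside 31.5% higher and 31.3% lower over all tested genes. Beside Samhd1, Soga1 had a larger log2 fold change (0.68) than the member itself, and beside Parp11 neither neighbour was called. Plvap beside Bst2 was the single one higher with a log2 fold change of at least 1 (1.29, from 0.2 ± 0.0794 to 0.483 ± 0.0503 FPKM; SD, n = 3). Hspbap1, 4397 bases from Parp14, was lower at -1.17 (edgeR adjusted p = 1.83e-05). Vat1, 47 bases from Ifi35, was lower at -0.89, and Grina, 3323 bases from Parp10, was lower at -0.85. On chromosome 16, Kpna1, 6145 bases beyond Parp9, was higher by 0.48. Parp14 and Dtx3l lie 54967 bases apart with no tested protein-coding gene between them, and Parp14, Dtx3l and Parp9 together were thus a run of 3 strongly higher genes between neighbours that were lower or slightly higher.

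**Figure D5:**
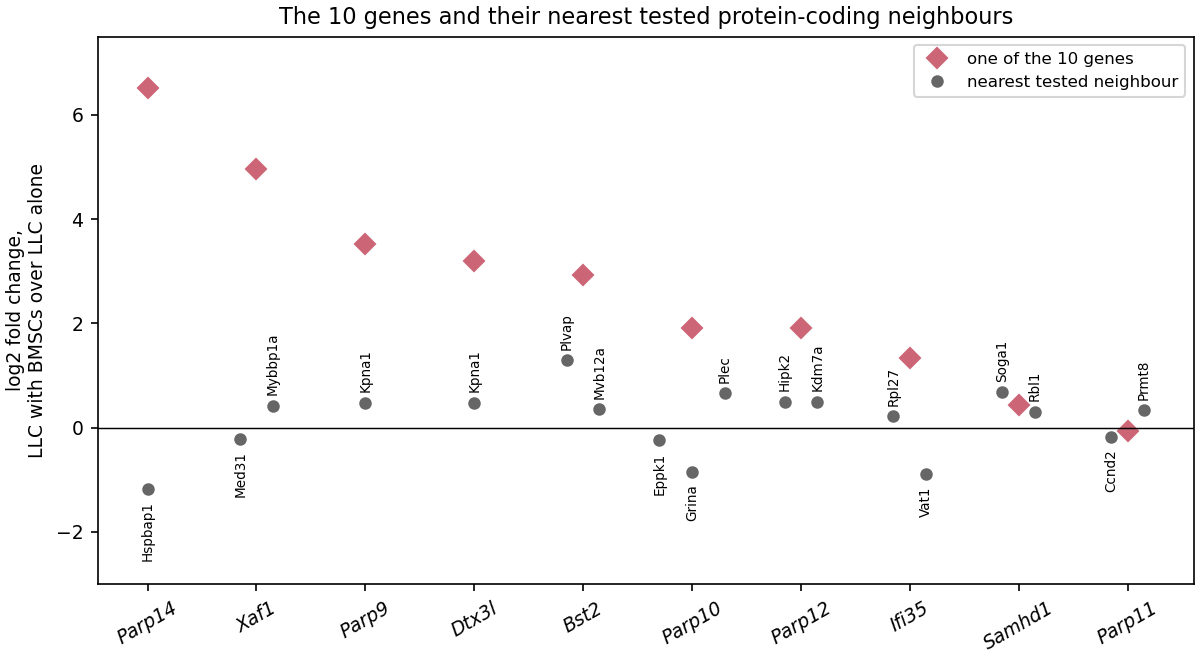
Log2 fold change of LLC with BMSCs over LLC alone for each of the 10 genes (diamonds) and its nearest tested protein-coding neighbours outside the 10 (circles, named). Neighbours lie between -1.17 (Hspbap1) and 1.29 (Plvap), while 8 of the 10 genes lie at 1.34 or above.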

How the data were processed

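Polyadenylated RNA of RFP-sorted cells had been sequenced as read pairs on the BGISEQ-500 platform. The authors deposited, for each library and for genes and transcripts, estimated counts (not always whole numbers) and FPKM. Per the labels, HISAT, StringTie, Cufflinks and GATK were used on build mm8, without versions. The quantification tool was not given in the sources used here. The deposited files also give a length per feature in bases, and the deposited FPKM table of the series equals the single-library FPKM values within 0.005. Groups and replicate numbers came from the sample labels.

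Estimated counts were rounded and tested with edgeR 4.0.16 (R 4.3.3; TMM scaling, filterByExpr, glmQLFit and glmQLFTest), with no block and a threshold of 0.05 on the Benjamini-Hochberg adjusted p over 13353 genes. Alternatives used DESeq2 1.42.0 and limma 3.58.1, and the fits were first tested on simulated counts. Positions and neighbours came from the GENCODE annotation of GRCm38, and promoter windows from RefSeq. Whether reads were assigned by strand is not given in the sources used here, so overlapping genes may share reads. Intervals on folds are 95%. All 10 members are named. Of the lists of related genes, those past the threshold with a log2 fold change of at least 1 in size are named, at most 4 per list by size, and every tested gene of the other PARP family; marker lists are given by their sums and leading genes. Related genes with smaller changes, and other markers, were named after their values were seen. Gpi1, glucose phosphate isomerase, had been listed by mistake with the tetherin genes and was left out. The members and lists were chosen with earlier results of these data known.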

Additional observations from a re-analysis of the deposited data

How the results depend on the processing

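The number of members called higher was 9, and that with a log2 fold change of at least 1 was 8, under each of the 17 alternatives. The log2 fold changes ranged from 3.83 to 6.6 for Parp14, 2.97 to 5.07 for Xaf1, 2.83 to 3.57 for Parp9, 2.37 to 3.27 for Dtx3l, 2.85 to 3.26 for Bst2, 1.79 to 1.94 for Parp12, 1.72 to 1.97 for Parp10, 1.26 to 1.56 for Ifi35 and 0.36 to 0.48 for Samhd1. The lowest values of Parp14, Xaf1, Parp9 and Dtx3l were on log2(FPKM + 1), which by its construction shrinks changes of low genes. Parp11 ranged from -0.16 to 0.0; without LLC alone replicate 2 it was 0.0 (adjusted p = 0.984) and just above zero, and no alternative called it. Of the other PARP family, 3 were higher with the close libraries summed (LLC alone replicates 1 and 2, LLC with BMSCs replicates 2 and 3) instead of 5, and 1 was lower with the length trend removed instead of 0. Of the other restriction factors, 1 was lower instead of 2 with DESeq2, without TMM, without a count filter and in the 3 limma fits, 0 were lower with the replicate block or the close libraries summed, and 0 to 2 with 1 library left out (0 without LLC alone replicate 1 or LLC with BMSCs replicate 3, and 1 without LLC alone replicate 2, LLC with BMSCs replicate 1 or LLC with BMSCs replicate 2). The related genes beside each member counted as higher numbered 8 with the close libraries summed, where 13 had been called. They numbered 17 without LLC alone replicate 3. Calls over all tested genes moved the same way. With the close libraries summed 3361 of 13821 were higher, in the main fit 4210 of 13353, and without LLC alone replicate 3 4736 of 13541. The cause of these shifts was not tested. With a replicate block, 4161 genes were higher and 4058 lower beside 4210 and 4183 without it, and no member's call changed. The correlations of same-numbered deviations from the group means were 0.0762, -0.106 and 0.0572. They show no shared effect of the replicate number, and they cannot tell whether same-numbered samples had been paired. Values in LLC alone limit what can be said of transcripts of Xaf1 and Parp9, whose counts there were small.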
